A study of Mus musculus with 4 samples.

Results

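The genes described here encode the proteins of the mitochondrial ribosome in Treg, the Foxp3-dependent regulatory lineage of CD4+ T cells, which holds back immune responses. Of the 28334 rows of the deposited table, 82 carried a symbol beginning with Mrpl or Mrps and a digit, and 4 of these were pseudogenes by their suffix. Of the other 78 rows, 77 had a linear value of about 10 or more in 2 or more libraries, and these 77 genes are the members described below, chosen by symbol, 48 named for the large subunit (Mrpl) and 29 for the small subunit (Mrps). Within this gene family, measured values did not choose the members beyond this minimum, but the family was chosen with earlier results of these data known. The 3 members nearest to it were far above it, with second highest log2 values of 6.75 for Mrps36, 6.92 for Mrpl23 and 7.08 for Mrps34. Below it, the highest row was the pseudogene Mrpl23-ps1 at 2.35, and the only row without a pseudogene suffix was Mrpl53, which stood at -2.05 in each library, near the table's lowest value of -2.1.

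Poly-A RNA was sequenced from sorted CD4+ YFP+ cells of the spleen and peripheral lymph nodes, taken from C57BL/6 mice that had received no treatment. All 4 libraries came from mice whose Foxp3 locus drives YFP-Cre, a fluorescent recombinase, with the genotype Foxp3 YFP-Cre/0, a single copy of this X-linked allele that the labels call hemizygous. The 2 WT libraries were Pdpk1 +/+ and the 2 KO libraries were Pdpk1 FL/FL, so that Cre acts on Pdpk1, the gene of the kinase PDK1, where Foxp3 is active. No source used here gave ages, sexes or the number of animals behind a library, so the p-values describe spread among 4 libraries, which may be technical.

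The mitochondrial ribosome translates the few messages of the mitochondrial genome, which encode core subunits of the respiratory chain and of ATP synthase. Its ribosomal RNA is made inside the organelle, but its proteins are all encoded in the nucleus, made in the cytosol and imported. Some of these proteins descend from the bacterial ancestor and others were added later. The large subunit joins amino acids while the small subunit reads the message. Treg are known to rely on oxidative metabolism more than many effector T cells do.

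Values are the authors' log2 normalised counts. The reads per library are unknown, so no counting interval is given. Pdpk1 stood at 11.71 in WT 1, 11.76 in WT 2, 11.78 in KO 1 and 11.73 in KO 2, with KO 0.02 above WT on the log2 scale (limma 95% interval -0.06 to 0.10, adjusted p = 0.612). A value summed over the gene keeps reads from exons that were not removed, so it does not check the deletion, and KO and WT are used as the labels give them. The Treg markers Foxp3, Il2ra, Ikzf2, Ctla4 and Tnfrsf18 all lay at 10.41 or higher in every library, and 3 of the 5 rose and 1 fell. Il2ra was at 13.03 in both WT libraries and at 13.26 and 13.25 in KO, Ctla4 rose from 11.79 and 11.8 to 12.06 and 12.02, and Tnfrsf18 from 10.41 in both to 10.58 and 10.55. Ikzf2 fell from 12.89 and 12.88 to 12.79 in both KO libraries, and Foxp3 did not pass the test (0.045, adjusted p = 0.247). Of markers of other cells, those of B cells summed to linear values of 343.9 to 381.0 in WT and 302.4 to 310.1 in KO (0 of 5 under the minimum), those of dendritic cells to 124.4 to 153.3 and 80.1 to 89.2 (1 of 4 under the minimum, Flt3), and those of myeloid cells to 278.3 to 360.4 and 284.1 to 290.8, against 23493.8 to 25432.8 for the Treg markers. NK markers summed to 61.9 to 75.9 in WT and 53.3 to 64.1 in KO, with Ncr1 and Klra8 under the minimum. The CD8 T cell markers Cd8a and Cd8b1 summed to 267.6 to 285.2 and 271.0 to 285.1, and the plasma cell list to 1984.1 to 2052.2 and 2472.7 to 2652.9, nearly all of it from Xbp1, which Treg also express, while Mzb1 was under the minimum. The part of other cells in the results below was not tested. In bulk RNA of this kind, fewer cells of a type and less RNA per cell cannot be told apart.

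Most mitochondrial ribosomal protein genes were slightly higher in KO than in WT. In limma, with p-values adjusted over all 13707 tested genes and a threshold of 0.05, 43 of the 77 members rose and 3 fell, where 27.0% of all tested genes rose, 20.3% fell and 47.4% passed in either direction. The median log2 fold change of the members was 0.125, or 1.09-fold, beside a median of 0.015 over all tested genes. The sizes were small throughout, from -0.12 for Mrps17 to 0.34 for Mrpl27, and no member differed by more than 1.27-fold. Of the members, 61 had both KO libraries above both WT libraries, against 39.9% of all tested genes, and 5 had both below, against 33.1%. In the other 11 the groups overlapped. All 43 genes that rose and all 3 that fell had groups that did not overlap.

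**Figure D1:**
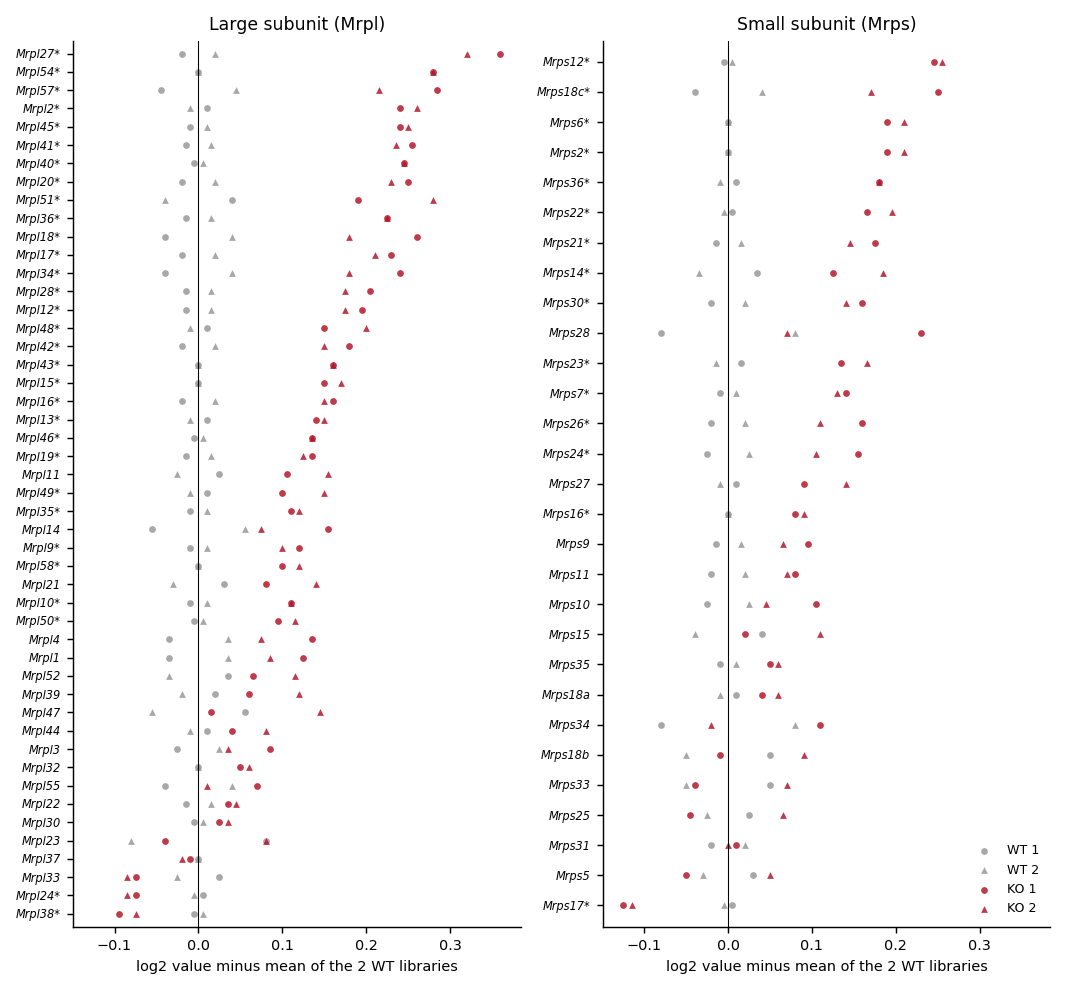
Each of the 77 members in each of the 4 libraries, as the log2 value minus the mean of the 2 WT libraries, with the large subunit on the left and the small subunit on the right, sorted by fold change. Grey marks are WT and red marks KO, circles are replicate 1 and triangles replicate 2, and an asterisk marks the 46 genes with a limma adjusted p under 0.05. In 61 members both red marks lie right of both grey marks.

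The spread within each genotype was narrow and had a pattern of its own. WT 1 minus WT 2 ran opposite to KO 1 minus KO 2 in 53 members and the same way in 10, with the remainder at 0 in at least 1 genotype. The median size of the difference was 0.03 between the WT libraries and 0.02 between the KO libraries, and the sum of the 2 differences had a median size of 0.02 and never exceeded 0.06. SDs and SEs taken within a genotype keep these opposed deviations, and the cause of the pattern was not tested. No source used here says whether a replicate effect was removed from the table before it was deposited. If one was, the SEs and p-values, and a fit with the replicate number as a term, would not measure the spread between the original libraries. With any 1 of the 4 libraries left out, 1 group holds a single library, and the calls were lost for all tested genes, not only for the members. The median fold changes were then 0.135 to 0.1425 for the large and 0.105 to 0.12 for the small subunit. The calls below hold for the fit on genotype alone with all 4 libraries.

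**Figure D2:**
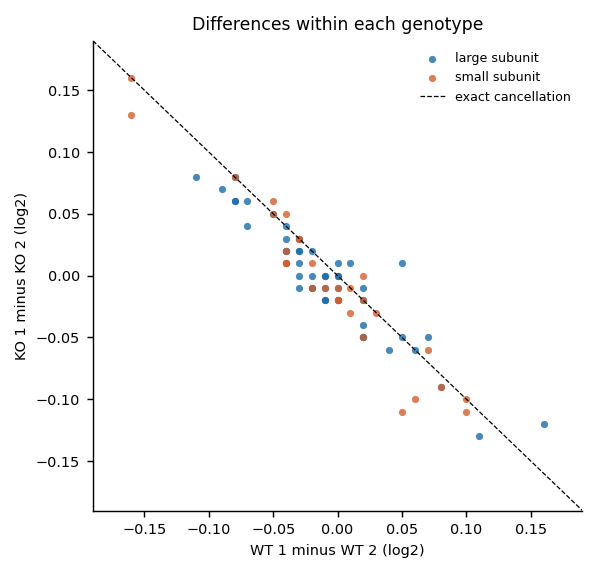
WT 1 minus WT 2 (x axis) against KO 1 minus KO 2 (y axis) for the 77 members, on the log2 scale, with large subunit genes in blue and small subunit genes in orange. The points lie along the dashed line on which both differences cancel, and in 53 members they have opposite signs.

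Among the large subunit genes, 29 of 48 rose and 2 fell, with a median log2 fold change of 0.13. Mrpl27 encodes the counterpart of bacterial ribosomal protein L27, whose tail reaches the peptidyl transferase centre in bacteria. Its log2 value was 8.09 in WT 1, 8.13 in WT 2, 8.47 in KO 1 and 8.43 in KO 2. Both KO libraries were above both WT libraries, and the gene (chromosome 11, 94653767 to 94660089, plus strand, mm10) was 1.27-fold higher in KO (log2 fold change 0.34, SE 0.03, adjusted p = 0.0077). Mrpl54, a protein of mitochondria with no bacterial counterpart (chromosome 10, 81264713 to 81266934, minus strand), read 8.42 in both WT libraries and 8.7 in both KO libraries. The libraries of each genotype were equal to the second decimal, and the gene rose 1.21-fold (0.28, SE 0.02, adjusted p = 0.00644).

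Mrpl2, the counterpart of the core protein L2 that bacteria need for peptide bond formation, read 8.63 and 8.61 in WT 1 and WT 2 and 8.86 and 8.88 in KO 1 and KO 2. It rose 1.19-fold (0.25, SE 0.02, adjusted p = 0.0075), with groups well apart. Mrpl57, another protein specific to mitochondria, had the same fold change of 0.25 with a wider spread (SE 0.05, adjusted p = 0.0259), at 8.17 and 8.26 in WT and 8.5 and 8.43 in KO, and its call was lost with no filter on low values. Mrpl45 tethers the ribosome to the inner membrane near the exit tunnel. It stood at 9.31 and 9.33 in WT and at 9.56 and 9.57 in KO, a rise of 0.245 (SE 0.02, 95% interval 0.19 to 0.30, adjusted p = 0.00625), the smallest adjusted p of any member. Mrpl41, also specific to mitochondria, rose by the same 0.245 (SE 0.03, adjusted p = 0.00885), from 8.38 and 8.41 to 8.65 and 8.63. Mrpl40 tied with these at 0.245 and was also called. Mrpl12 forms the stalk that recruits translation factors. Its values were 8.59 and 8.62 in WT and 8.8 and 8.78 in KO, and it rose 1.14-fold (0.185, SE 0.02, adjusted p = 0.0126), with 15.2% of its exon bases shared with an annotated neighbour.

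The 2 large subunit genes that fell were Mrpl38 and Mrpl24. Mrpl38, specific to mitochondria (chromosome 11, 116131817 to 116138868, minus strand), stood at 8.85 and 8.86 in WT and at 8.76 and 8.78 in KO, a fall of 1.06-fold (-0.085, SE 0.02, adjusted p = 0.0457). Mrpl24, the counterpart of bacterial L24 (chromosome 3, 87919506 to 87923672, plus strand), stood at 9.75 and 9.74 in WT and at 9.67 and 9.66 in KO (-0.08, SE 0.02, adjusted p = 0.0264). Exons of Rrnad1 cover 38.2% of its exon bases, and the counting's use of strand was not given, so reads of the 2 genes cannot be told apart there. Both calls were lost without a variance trend in limma, and that of Mrpl38 also with a robust variance prior. Mrpl33 had the same log2 difference of -0.08 as Mrpl24, at 8.84 and 8.79 in WT and 8.74 and 8.73 in KO. It did not pass (SE 0.03, adjusted p = 0.0911), and another annotated gene covers 22.4% of its exon bases. Mrpl37 differed by -0.015 (adjusted p = 0.469), Mrpl23, whose bacterial counterpart sits at the exit tunnel, by 0.02 with a wide interval of -0.23 to 0.27, and Mrpl30 by 0.03 (-0.02 to 0.08).

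Among the small subunit genes, 14 of 29 rose and 1 fell, with a median log2 fold change of 0.115. Mrps12, the counterpart of bacterial S12, a protein of the decoding centre that governs accuracy (chromosome 7, 28739641 to 28741820, minus strand), had the highest fold change. It stood at 8.23 in WT 1, 8.24 in WT 2, 8.48 in KO 1 and 8.49 in KO 2. The groups were far apart beside their spread, and the gene rose 1.19-fold (0.25, SE 0.02, adjusted p = 0.00787). Mrps2 was at 9.09 in both WT libraries and at 9.28 and 9.3 in KO, and Mrps6 was at 8.5 in both WT libraries and at 8.69 and 8.71 in KO. Each rose by 0.20 (adjusted p = 0.0077 for Mrps2 and 0.00975 for Mrps6), and both are counterparts of bacterial small subunit proteins. Exons of other genes, Slc5a3 among them, cover 36.1% of the exon bases of Mrps6. Mrps22, specific to mitochondria, was at 8.43 and 8.42 in WT and 8.59 and 8.62 in KO, a rise of 0.18 (SE 0.03, adjusted p = 0.0135).

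The gene that fell was Mrps17, the counterpart of bacterial S17 (chromosome 5, 129715497 to 129722556, plus strand). It was at 9.48 and 9.47 in WT and at 9.35 and 9.36 in KO, 1.09-fold lower in KO (-0.12, SE 0.02, 95% interval -0.17 to -0.07, adjusted p = 0.0139). At the flat end of the group stood Mrps5, with 9.31, 9.25, 9.23 and 9.33 in WT 1, WT 2, KO 1 and KO 2 with no difference of the means (95% interval -0.14 to 0.14). Mrps31 (0.005), Mrps25 (0.01) and Mrps33 (0.015) also had overlapping groups, and all 3 are specific to mitochondria. Other genes cover 58.2% of the exon bases of Mrps25.

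Several Mrps symbols do not mark a small subunit protein. Structures of the mammalian ribosome place the products of Mrps30 and Mrps18a in the large subunit, and Mrps36 is known as an adaptor of the 2-oxoglutarate dehydrogenase complex. Mrps30 was at 8.79 and 8.83 in WT and 8.97 and 8.95 in KO and rose by 0.15 (SE 0.03, adjusted p = 0.0195). Another annotated gene covers 18.1% of its exon bases. Mrps18a was at 8.71, 8.69, 8.74 and 8.76 and did not pass (0.05, adjusted p = 0.16). Mrps36, the member with the lowest log2 values, was at 6.58 and 6.56 in WT and at 6.75 in both KO libraries, a rise of 0.18 (SE 0.04, adjusted p = 0.0357). The Mrps18 paralogs thus gave different values, since Mrps18c rose by 0.21 (SE 0.05, adjusted p = 0.0431) from 7.56 and 7.64 to 7.85 and 7.77, while Mrps18b had overlapping groups at 7.6, 7.5, 7.54 and 7.64 (0.04, adjusted p = 0.632). The differences between these paralogs were not tested. Another annotated gene overlaps 59.1% of the exon bases of Mrps18b and 18.5% of those of Mrps18c. Over 10% of exon bases were overlapped in 15 members. The call of Mrps18c was lost after median centring and with no filter on low values.

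Subunit proteins with other symbols were measured as well. Dap3, a GTP-binding protein of the small subunit, was at 10.38 and 10.39 in WT and 10.48 and 10.49 in KO and rose by 0.10 (adjusted p = 0.0134). Aurkaip1, also of the small subunit, rose by 0.125 (adjusted p = 0.0153), from 9.62 and 9.59 to 9.73 in both KO libraries. Chchd1 differed by 0.15 (adjusted p = 0.0515), Gadd45gip1, of the large subunit, by 0.045 (adjusted p = 0.412) and the pentatricopeptide repeat protein gene Ptcd3 by -0.055 (adjusted p = 0.0613), none of which passed. With the subunits set by place in the ribosome, 30 of 51 large subunit genes rose and 2 fell, and 14 of 30 small subunit genes rose and 1 fell, with medians of 0.125 and 0.1075. By symbol the medians were 0.1275 and 0.115. Between single library pairs, KO minus WT had a median of 0.115 to 0.14 over the large subunit and of 0.10 to 0.13 over the small subunit, and the large subunit had the higher median in all 4 pairs, which share libraries. The difference between subunits was not tested.

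By origin, the shares of genes that rose were similar among proteins with a bacterial counterpart (25 of 46, 2 fell) and proteins specific to mitochondria (17 of 30, 1 fell), with medians of 0.1225 and 0.12. Split further by place, 14 of 20 large subunit proteins specific to mitochondria rose and 1 fell, with a median of 0.1425. In the small subunit, 3 of 10 such proteins rose and 0 fell, with a median of 0.05, beside 9 of 16 with a bacterial counterpart (1 fell, median 0.1325). Of all tested genes 27.0% rose and 20.3% fell, and the 3 of 10 that rose lay near that share. The Mrps18 paralogs fall on both sides, with Mrps18a and Mrps18b counted as specific to mitochondria and Mrps18c as having a bacterial counterpart. These splits compare few genes and were not tested.

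The levels of the members spanned a wide range. Per kilobase of transcript, the mean linear value ran from 80.3 (Mrpl47) to 959 (Mrpl30) in the large subunit, with a median of 379.8, and from 51.2 (Mrps25) to 787 (Mrps17) in the small subunit, with a median of 281.5. Next to Mrpl30 in the large subunit stood Mrpl52 at 938 and Mrpl20 at 937, and next to Mrps17 in the small subunit stood Mrps21 at 609 and Mrps23 at 604. At the low end were Mrpl35 at 101 and Mrpl1 at 106, and, in the small subunit, Mrps35 at 113 and Mrps27 at 138. Of these, Mrpl20 (0.24), Mrpl35 (0.115), Mrps21 (0.16) and Mrps23 (0.15) rose, and Mrps17 fell. This order rests on the length used, the median of a gene's annotated transcripts, which was adopted after the order by the longest transcript had been seen. By the longest transcript, the 3 highest were Mrpl33, Mrpl52 and Mrpl42 in the large and Mrps9, Mrps23 and Mrps21 in the small subunit, and the 3 lowest were Mrpl17, Mrpl47 and Mrpl48, and Mrps25, Mrps35 and Mrps33. The fold change had little relation to the level, with a Pearson r of -0.032 with the mean log2 value across the 77 members, which share all libraries.

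**Figure D3:**
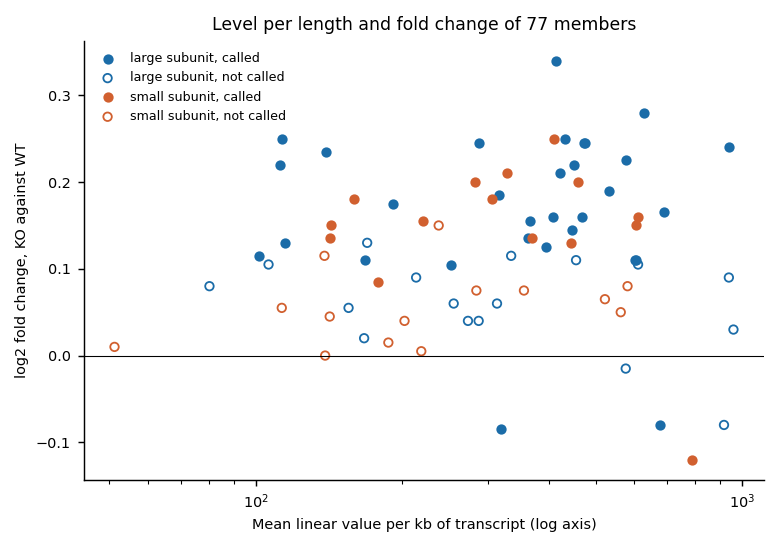
Mean linear value per kilobase of transcript over the 4 libraries (x axis, log scale) against the log2 fold change of KO against WT (y axis) for the 77 members. Filled points passed the limma threshold and open points did not. The 3 filled points below 0 are Mrpl38, Mrpl24 and Mrps17, and filled points above 0 run from Mrpl35 at 101 to Mrpl20 at 937.

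The fold changes were also compared after a correction for transcript length. The members are short, with a median transcript length of 1226 bases beside 2534 for the tested genes, and the median fold change of all tested genes declined with length. After a correction of each library for length and mean value, the median of the members went from 0.125 to 0.08, beside -0.01 over all genes, and 66 of 77 were above 0. In that fit 26 members rose and 5 fell (Mrpl24, Mrpl33, Mrpl37, Mrpl38 and Mrps17), where 20.7% of all genes rose and 22.5% fell. By subunit, 19 of 48 large subunit genes rose and 4 fell, and 7 of 29 small subunit genes rose and 1 fell, with medians of 0.09 and 0.07. The share of small subunit genes that rose was thus near that of all genes. Mrpl27 (0.29, adjusted p = 0.00779), Mrpl54 (0.23, adjusted p = 0.00838) and Mrps12 (0.19, adjusted p = 0.0139) still passed in limma, and Mrps17 went to -0.20 (adjusted p = 0.00658). The longest transcript was the length first used, and it was replaced by the median after its results were seen. With it, 22 members rose and 5 fell, where 20.2% of all genes rose and 22.6% fell. The median was 0.0671, and 59 of 77 were above 0. Among the members themselves, the fold change had a Pearson r of -0.07 with log2 length.

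**Figure D4:**
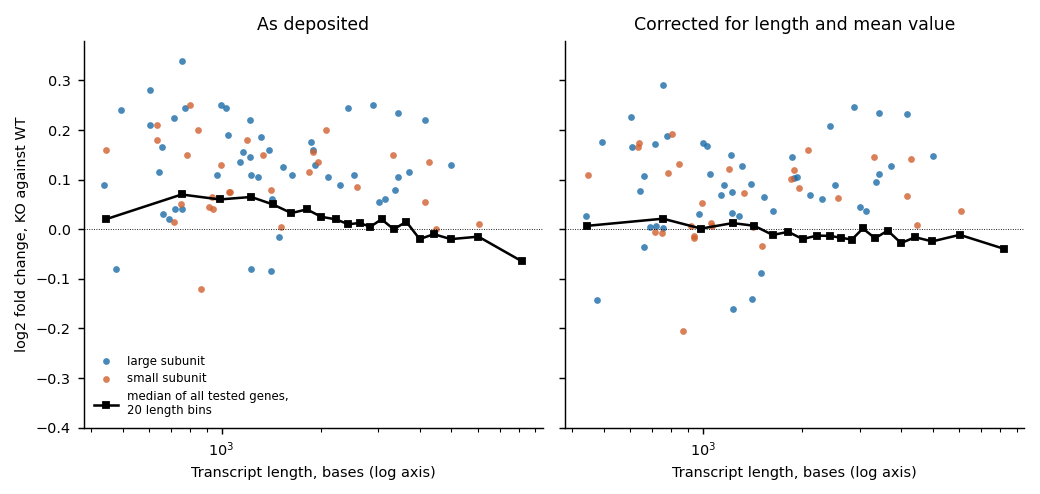
Transcript length (x axis, log scale) against the log2 fold change of KO against WT (y axis), as deposited on the left and after correction for length and mean value on the right. Coloured points are members, and black squares are medians of all tested genes in 20 bins of length. The squares slope down with length on the left and lie near 0 on the right, and most members lie above them in both panels.

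The promoters of members among the 2 highest and the 2 lowest fold changes of each symbol group are shown, except Mrpl54 and Mrpl38, which had no match in the RefSeq table, so that the letters searched for can be seen in place. Each runs from 250 bases before to 50 after the RefSeq start (GRCm38.p6, the assembly of mm10), and capitals mark every match on either strand to 1 of 6 motifs. CCGGAAG is bound by ETS factors such as GABP. The core of the NRF1 motif was searched as CGCATGCG. For the factor YY1 the letters were AAGATGGCG. The motif of SP1 was searched as GGGCGG. The E-box of bHLH factors was searched as CACGTG. The TATA box was searched as TATAAA. The first 3 genes rose, Mrpl24 and Mrps17 fell, and Mrps5 is the gene with a fold change of 0. They lie at chr11:94653541-94653840 (plus strand), chr7:28741772-28742071 (minus), chr5:100798509-100798808 (plus), chr3:87919294-87919593 (plus), chr5:129715247-129715546 (plus) and chr2:127587176-127587475 (plus).
Mrpl27: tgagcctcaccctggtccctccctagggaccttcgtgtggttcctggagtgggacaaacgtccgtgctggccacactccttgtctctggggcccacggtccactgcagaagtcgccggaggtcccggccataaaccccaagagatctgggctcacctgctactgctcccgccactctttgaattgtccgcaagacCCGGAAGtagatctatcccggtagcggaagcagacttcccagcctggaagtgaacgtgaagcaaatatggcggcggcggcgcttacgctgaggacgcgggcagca
Mrps12: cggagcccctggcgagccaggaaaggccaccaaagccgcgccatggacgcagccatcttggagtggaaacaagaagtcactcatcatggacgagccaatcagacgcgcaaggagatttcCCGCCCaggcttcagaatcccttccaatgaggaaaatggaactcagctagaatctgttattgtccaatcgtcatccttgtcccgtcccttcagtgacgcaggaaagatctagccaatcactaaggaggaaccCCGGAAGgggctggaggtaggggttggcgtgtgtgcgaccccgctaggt
Mrps18c: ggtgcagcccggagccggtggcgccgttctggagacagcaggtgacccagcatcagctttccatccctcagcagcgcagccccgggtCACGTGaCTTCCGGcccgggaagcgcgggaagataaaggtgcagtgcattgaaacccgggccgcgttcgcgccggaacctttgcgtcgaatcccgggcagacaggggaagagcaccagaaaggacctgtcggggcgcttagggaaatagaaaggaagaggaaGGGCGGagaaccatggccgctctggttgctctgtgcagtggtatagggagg
Mrpl24: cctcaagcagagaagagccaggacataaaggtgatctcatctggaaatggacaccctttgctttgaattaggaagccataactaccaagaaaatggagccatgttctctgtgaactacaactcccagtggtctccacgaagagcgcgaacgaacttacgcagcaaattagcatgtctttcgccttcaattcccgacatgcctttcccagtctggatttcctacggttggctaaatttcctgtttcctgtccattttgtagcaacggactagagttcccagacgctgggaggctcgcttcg
Mrps17: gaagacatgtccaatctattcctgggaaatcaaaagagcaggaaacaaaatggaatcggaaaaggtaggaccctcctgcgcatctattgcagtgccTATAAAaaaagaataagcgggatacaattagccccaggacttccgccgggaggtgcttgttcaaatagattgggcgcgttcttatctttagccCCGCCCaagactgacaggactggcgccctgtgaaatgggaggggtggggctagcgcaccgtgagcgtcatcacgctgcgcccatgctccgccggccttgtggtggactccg
Mrps5: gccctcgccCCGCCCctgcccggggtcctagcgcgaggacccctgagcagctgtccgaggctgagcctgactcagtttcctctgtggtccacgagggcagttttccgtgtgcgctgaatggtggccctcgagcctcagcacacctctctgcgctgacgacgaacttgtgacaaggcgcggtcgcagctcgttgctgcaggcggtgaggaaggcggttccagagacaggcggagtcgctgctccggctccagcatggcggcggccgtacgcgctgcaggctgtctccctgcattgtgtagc

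The ETS letters occurred in Mrpl27 at -55, in Mrps12 at 2 and, on the other strand, in Mrps18c at -156, counted from the start site to the first base of the match. The SP1 letters occurred on the other strand in Mrps12 at -131 and in Mrps5 at -241. Mrps18c also held an E-box at -163 and the SP1 letters at -1. None of the 6 motifs matched in the window of Mrpl24, while that of Mrps17 held the SP1 letters, on the other strand, at -61 and a TATA box at -154. No matches overlapped in these windows. A RefSeq promoter was found for 68 members. The ETS letters stood in 25 of them (36.8%), beside 20.7% of 9707 tested genes and 9.93% of all 27025 genes with such a promoter. YY1 letters stood in 11.8% of the members and 3.67% of tested genes, the NRF1 core in 10.3% and 4.43%, SP1 letters in 34 of 68 members and 67.8% of tested genes, the E-box in 7.35% and 11.7% and the TATA box in 7.35% and 8.59%. Among the members, ETS letters stood in 41.0% of the 39 that rose and in 31.0% of the 29 others. The NRF1 core (7.69% and 13.8%) and YY1 letters (10.3% and 13.8%) went the other way. SP1 letters stood in 53.8% and 44.8%, and the E-box and the TATA box each in 10.3% and 3.45%. These shares are descriptions and were not tested.

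The members were spread over 17 chromosomes, with at most 11 on one, chromosome 11. For 18 of 77 (23.4%) the annotation holds a protein-coding gene on the other strand that starts at most 1000 bases upstream, beside 10.6% of 11657 tested protein-coding genes. Of the 17 such partners that were tested, 4 rose and 3 fell, shares near the 27.0% and 20.3% of all tested genes, with a median log2 fold change of 0.02. Of the members, 11 of the 18 with a partner rose, and 32 of the 59 without one. Ska3, a gene of chromosome segregation that starts 49 bases from Mrpl57, rose by 0.775, beside 0.25 for Mrpl57. Ncapd2, a condensin subunit gene that starts 100 bases from Mrpl51, rose by 0.50, beside 0.235 for Mrpl51. Pnpla7, which starts 935 bases from Mrpl41, rose by 0.25, beside 0.245 for Mrpl41. Psma2 rose by 0.165 next to Mrpl32, which was not called. Opposed to these partners, Eme2 (-0.44), next to Mrps34, Zfp661 (-0.445), next to Mrps5, and Mitd1 (-0.115), next to Mrpl30, fell. None of these ribosomal protein genes was called.

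Genes that work with the mitochondrial ribosome were called at shares near those of all tested genes, of which 27.0% rose and 20.3% fell. Of 14 translation factors and partners, 3 rose and 2 fell, with a median of 0.0075. Gfm1, the elongation factor that moves the ribosome along, rose by 0.125 (adjusted p = 0.0176), from 9.59 and 9.62 to 9.72 and 9.74. Gfm2, which helps split the ribosome after termination, fell by 0.15 (adjusted p = 0.0207), from 9.65 and 9.61 to 9.46 and 9.5. The inner membrane insertase gene Oxa1l rose by 0.08 (adjusted p = 0.021) and the release factor gene Mtrf1 by 0.285 (adjusted p = 0.0169). Of 28 genes for assembly and modification of ribosomal RNA, 6 rose and 7 fell, with a median of -0.005. The GTPase genes Noa1 and Mtg2, both of ribosome assembly, went opposite ways, with Noa1 up by 0.25 (adjusted p = 0.00651; 9.23 and 9.25 in WT, 9.48 and 9.5 in KO) and Mtg2 at -0.215 (adjusted p = 0.00767; 8.91 and 8.9 in WT, 8.69 in both KO libraries). Rbfa and C1qbp rose by 0.175 and 0.17.

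For the replication and transcription of mitochondrial DNA, 4 of 17 genes rose and 3 fell (median -0.045), among them Tfam, which packages that DNA, with a rise of 0.105 (adjusted p = 0.0125), Mgme1 (0.24) and Top1mt (-0.295, adjusted p = 0.0202). Of 15 mitochondrially encoded genes on the list, 9 passed the minimum. The complex I genes mt-Nd4, mt-Nd5 and mt-Nd6 rose by 0.08 to 0.09 (adjusted p = 0.0483, 0.0371 and 0.024) and 0 fell. The median over the 9 was 0.08, and it turned to -0.02 after the correction for length and mean value. The annotated mt-Nd5 and mt-Nd6 overlap only at their ends, on opposite strands. Among 10 transcription regulators of mitochondrial genes, Myc rose by 0.29 (adjusted p = 0.00573), from 11.08 and 11.07 to 11.35 and 11.38, Gabpb1, a subunit of the ETS factor GABP, by 0.135 (adjusted p = 0.0077) and Nrf1 by 0.09 (adjusted p = 0.0178). In all 4 of the 10 rose, with a median of 0.0075, and the coactivator gene Ppargc1b fell (-0.25, adjusted p = 0.0226).

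The lists most like the members were the cytosolic ribosomal proteins and the nuclear subunits of the respiratory chain. Of 84 cytosolic ribosomal protein genes, 33 rose and 1 fell, with a median of 0.07 that turned to -0.01 after the correction for length and mean value. Of 78 nuclear respiratory subunit genes, 56 rose and 2 fell, with a median of 0.15 that went to 0.08. Rps27l rose by 0.305 and Rpl24 was the one that fell (-0.465), and reads of cytosolic ribosomal protein genes can be split with their many pseudogenes. Uqcrfs1, the Rieske protein of complex III, rose by 0.235 and Atp5c1, a subunit of ATP synthase, by 0.165. All 20 proliferation genes on the list rose, where 27.0% of all tested genes rose, with a median of 0.57 that went to 0.55. The lists were chosen with earlier results of these data known, so their counts are descriptions. Ube2c, an enzyme of mitosis, stood at 8.56 and 8.57 in WT and at 9.38 and 9.35 in KO. The proliferation genes moved with the genotype in the same libraries as the members, and their part in the members' values was not tested. No difference between these lists was tested.

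**Figure D5:**
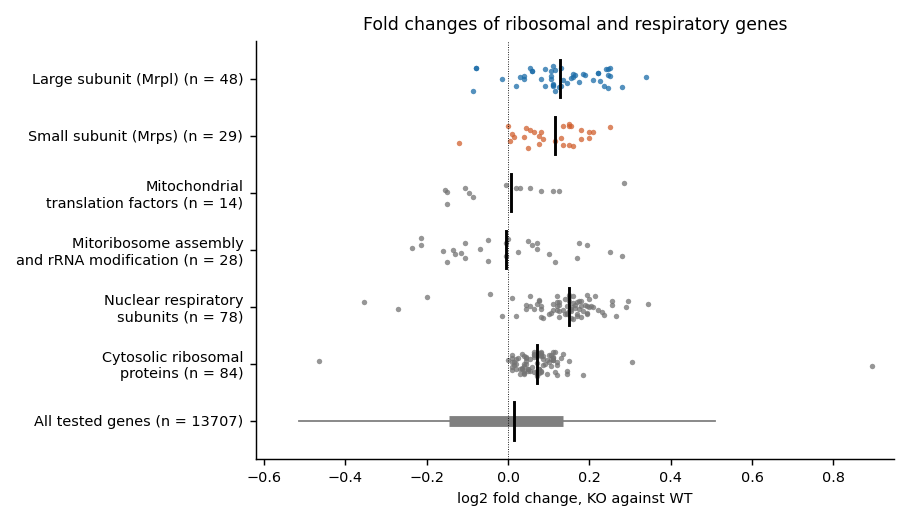
Log2 fold change of KO against WT for single genes in each list (points) and for all 13707 tested genes (thick bar, the 25th to 75th percentile; thin line, the 5th to 95th percentile), with medians as black lines. Both mitochondrial ribosomal subunits, the respiratory subunits and the cytosolic ribosomal proteins lie mostly right of 0, with medians of 0.13, 0.115, 0.15 and 0.07. Translation factors and assembly genes spread around 0.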

How the data were processed

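The authors deposited log2 normalised counts, per the file headers, and the submitters' processing notes list STAR, DESeq2 and mm10. No source used here gave versions, annotation, counting tool, strand use or transform. Each of the 4 columns matched 1 sample by its description. Reads could not be recovered, so depth is unknown and no count model was run.

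The 2 KO and 2 WT libraries were set against each other in limma 3.58.1 (R 4.3.3), with genotype as the only term and a variance trend, on 13707 rows with a linear value of about 10 or more in 2 or more libraries. P-values are two-sided and adjusted by Benjamini-Hochberg over those rows. "Rose" and "fell" mean an adjusted p under 0.05, and SEs are those of the fit.

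Gene lengths came from the basic set of GENCODE M21 (GRCm38), matched by symbol for 97.5% of tested genes. The longest transcript was used first. The median over transcripts replaced it after its results were seen, because single long transcripts such as that of Mrpl17 set the length, and both versions are given. The length choice also set which members were named for their level per length. The correction for length and mean value was a loess fit (span 0.4) in each library. Promoters came from RefSeq.

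Members, gene lists and tests were chosen with earlier results of these data known. Named members were the 6 highest and 6 lowest fold changes and the 3 highest and 3 lowest levels per length in each symbol group, those near the minimum, Mrpl12, and those whose place differs from their symbol or which are paralogs, with genes ordered by fold change and then symbol, so that among ties for the highest places the later symbols were taken. From the other lists up to 4 called genes with the smallest p could be named. Mrpl40, Mrpl51, Mrpl32, the neighbours and the longest-transcript names were added after their values were seen. Alternatives were scaling, filters, pseudocount, variance prior, array weights, left-out libraries, a replicate block and the length correction.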

Additional observations from a re-analysis of the deposited data

How the results depend on the processing

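Same-numbered libraries deviated in opposite directions, with a correlation of -0.943 between WT 1 minus WT 2 and KO 1 minus KO 2 over the 77 members and -0.907 over all tested genes, and the labels do not say that a number marks a shared animal or day. With the replicate number as a block, limma called 0 of all 13707 genes, with 0.0965 as the lowest adjusted p and 4888 genes under an unadjusted 0.05, so 0 large and 0 small subunit members rose or fell, and 31 members had an unadjusted p under 0.05. The 265 related genes are those tested from all lists above except the cell markers, with the proliferation genes included. They gave 0 in both directions as well. A crossed pairing (WT 1 with KO 2, WT 2 with KO 1) was chosen after the opposed deviations were seen, and its block takes them up. In that fit 40 large and 21 small subunit members rose and 2 and 1 fell. Its share over all tested genes is not given here, so these counts are no support for the calls. Leaving out each library in turn leaves a lone library in a group, which is assumed to vary like the other group. The calls were then lost for all tested genes, not only for members and related genes. The medians were 0.135 to 0.1425 for the large and 0.105 to 0.12 for the small subunit.

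The correction for length and mean value gave 19 of 48 large and 7 of 29 small subunit members that rose, and 4 large and 1 small that fell. The medians were 0.0904 and 0.0675. Of all genes in that fit, 20.7% rose and 22.5% fell. Related genes gave 65 that rose and 31 that fell, against 131 and 16 in the main fit. With the longest transcript as the length, 17 of 48 large and 5 of 29 small subunit members rose, and 4 large and 1 small fell. This definition was used first and replaced after its results were seen. Of all genes in that fit, 20.2% rose and 22.6% fell, so the small subunit share that rose was below that of all genes. The medians were 0.0801 and 0.0584, and 59 related genes rose and 38 fell. Against 29 large and 14 small subunit members that rose in the main fit, quantile normalization gave 25 and 10, with medians of 0.1025 and 0.0844. Median centring gave 29 and 10, with medians of 0.1075 and 0.095, and no filter on low values 24 and 10. Related genes that rose and fell were 88 and 23 under quantile normalization, 109 and 23 under median centring, and 104 and 13 unfiltered. Of the 2 large subunit genes that fell, 0 were called without a variance trend and 1 with a robust prior. With a fold change of at least 1.1 added, 21 large and 10 small subunit members rose and 0 members of either subunit fell. With that limit 75 related genes rose and 11 fell. For the scalings, the filter, the variance settings and the fold limit, the shares over all tested genes are not given here. Those counts thus do not show whether members passed more often than genes at large. The cause of these changes was not tested.

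Among the 37 named members, signs turned only for ones that had not passed, under the scalings and left-out libraries given here. Mrpl30 went to -0.015, Mrps25 to -0.0088 and Mrps31 to -0.0144 under quantile normalization, and Mrps25 to -0.01, Mrps31 to -0.015 and Mrps33 to -0.005 under median centring. Without 1 library, values ran from -0.06 to 0.1 for Mrpl23, from -0.01 to 0.09 for Mrps18b, from -0.045 to 0.065 for Mrps25, from -0.015 to 0.025 for Mrps31, from -0.04 to 0.07 for Mrps33 and from -0.035 to 0.125 for Mrps34.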
